A study of Mus musculus with 13 samples.

Results

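Classical Ly6c2-high monocytes were selected from 13 single-cell libraries, made in droplets from the livers of mice, by the transcripts of each cell. Barcodes with at least 1500 UMIs (unique molecular identifiers, each standing for 1 captured transcript) were taken as cells. A cell was taken as a monocyte if it held at least 2 UMIs of Ly6c2, at least 10 of Lyz2 and at least 1 of Ccr2, at most 1 UMI of C1qa, C1qb and C1qc together, and none of Flt3, Siglech or Cd3e. This rule found 261 monocytes among 95563 cells (0.273%), of which 233 lay in the 12 libraries of the diet atlas and 28 in a library of diet withdrawal. The levels of these 9 genes chose the cells and are given as a description only.

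The libraries came from livers of male C57BL/6J mice 6 to 12 weeks old, on chow that held DDC at 0.1%. DDC is 3,5-diethoxycarbonyl-1,4-dihydrocollidine, a xenobiotic that injures bile ducts and causes cholangitis. Untreated livers (D0) stand for steady state, D3 and D5 of the diet for onset, and D9, D19 and D25 for progression. The STOP library came from mice given DDC for 18 days and then 7 days of recovery. Each day of the atlas has 1 library of isolation protocol A and 1 of protocol B, and STOP was made with protocol B. A library is named here by day and protocol, as D9 A, and the D19 B library carries day 18 in its label. For protocol A, live singlets, Epcam+ cells, Pdpn+ cells, Cd45+ cells, Cd31+ cells without Lyve-1, Lyve-1+ cells and cells with retinoid autofluorescence were sorted and mixed. For protocol B, live cells of a stellate cell preparation, Cd45+ Itgax+ Cd64-, Epcam+ and Cd3e+ Lyve-1- cells were. No gate of either protocol selected monocytes as such, and the Cd64- gate removes cells with the high-affinity Fc receptor that classical monocytes carry. The labels do not say which mice went into which library, so that libraries are the samples and p-values measure the spread between libraries. All libraries came from wild-type mice, and DDC injury is a xenobiotic model.

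Classical monocytes are made in the bone marrow, carry Ly6C and the chemokine receptor Ccr2, and leave the marrow and enter inflamed tissue along gradients of Ccr2 ligands. In tissue they lose Ly6c2 and become macrophages that express C1q, or cells that resemble dendritic cells and express MHC class II, the molecules that present antigen to CD4+ T cells. In the liver they replace lost Kupffer cells and give rise to macrophages around injured bile ducts.

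Total counts lay between 29307190 and 108602421 UMIs per library. The monocytes were shallow in number but not in depth, with a median of 4663 to 14740 UMIs per monocyte and between 2 and 72 monocytes in a library. Libraries with at least 20 monocytes were D5 A (24), D9 A (72), D25 A (43) and STOP (28). D0 A (19), D0 B (18), D3 A (16), D5 B (10) and D25 B (14) held at least 10, D19 A held 9, and D3 B (3), D9 B (2) and D19 B (3) held too few for a level to be read. Of the monocyte barcodes, 3 occurred in another library, and 0 of them as a monocyte. A transcript with the symbol CT010467.1 took 21.4% of monocyte UMIs in D3 A, 11.9% in D9 A and 12.3% in D25 A, and between 0.296% and 5.34% in the others.

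The label was checked against genes that the rule did not use. Levels are CPM, the UMIs of a gene over all monocytes of a library scaled to a common total, and T cells (Cd3e of at least 2 UMIs, Lyz2 of at most 2) and barcodes of at most 100 UMIs, which hold free RNA, serve as background. Chil3, a chitinase-like protein of Ly6C-high monocytes, stood at 2315 CPM in the monocytes, 0.444 CPM in T cells and 35.4 CPM in free RNA. Plac8, which is high in circulating Ly6C-high monocytes, stood at 2230 CPM, against 284 and 459 CPM. Hp, which encodes haptoglobin, stood at 778 CPM, against 17.7 and 147 CPM. Ifitm6 stood at 573 CPM, against 17.7 and 53.8 CPM. Chil3, Plac8, Hp and Ifitm6 were thus far above both backgrounds, which do not set monocytes apart from neutrophils. Fn1, which encodes fibronectin, stood at 1399 CPM, and Vcan, which encodes the proteoglycan versican, at 239.8 CPM, against 73.1 and 2.70 CPM in free RNA. At least 1 UMI in a monocyte is a weak demand, which 15368 genes met in the libraries with at least 10 monocytes. Of 25 genes in the list of classical monocyte markers, 24 met it, among them Cd300lf, with 0 CPM in D5 A, D9 A and STOP. The exception was Ly6c1, with 0 UMIs in 261 monocytes, a near-identical neighbour of Ly6c2 whose reads the counting could assign to either gene, so that the levels of both are uncertain.

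Markers of other cell types were present in many of the monocytes. Fewer than 2 UMIs of the lists of B, T and NK cells, cholangiocytes, sinusoidal endothelium, and stellate cells and fibroblasts were held by 36 of 261 monocytes. With Fcgr2b and Ighm not counted, 113 of 261 held fewer than 2. T cell and NK cell markers were low over all monocytes, with 4.12 CPM of Cd3g and 12.4 CPM of Nkg7. In D5 B the T cell list summed to 264 CPM and the NK cell list to 106 CPM, and in STOP they summed to 149 and 143 CPM, all below free RNA of these libraries (2068 and 1114 CPM in D5 B, 2470.2 and 2477 CPM in STOP). At least 2 UMIs of the T cell list were held by 20% of monocytes in D5 B and 17.9% in STOP, and of the NK cell list by 30.0% and 17.9%. The B cell list summed to 1157 CPM in D0 B, one of the 2 steady-state libraries, with Ighm at 590.5 CPM, at least 2 UMIs in 61.1% of its monocytes and 1951 CPM in free RNA. In the other libraries with at least 9 monocytes it summed to between 39.5 and 172 CPM. The Kupffer cell list summed to at most 155 CPM in a library, below free RNA in all 13, and at least 2 of its UMIs were held by 43.8% of monocytes in D3 A, where Slc40a1 stood at 126 CPM. Cx3cr1, Ace and Treml4, markers of nonclassical monocytes, stood at 196, 40.3 and 36.2 CPM, all above free RNA at 31.7, 7.51 and 24.8 CPM. Over all monocytes, Ptprb and Kdr of sinusoidal endothelium lay below free RNA, at 431 against 755 CPM and 264 against 478 CPM. UMIs of the sinusoidal list, with Fcgr2b not counted, lay mostly in 1 monocyte in part of the libraries. This held for D19 A (159 of 161 UMIs), D5 B (83 of 90) and STOP (209 of 258). In D3 A 9 of 16 monocytes held at least 5, and in D9 A the highest held 137 of 789. S100a8 and S100a9, abundant calprotectin subunits of neutrophils that monocytes carry as well, were concentrated in few cells in part of the libraries. In D0 A, 1 of 19 monocytes held 1542 of 2144 S100a8 UMIs, and that library stood apart with 12738 CPM of S100a8. In D25 A S100a8 was not so concentrated, with UMIs in 26 of 43 monocytes and 32 of 111 in the highest. In D0 A 1 monocyte held 837 of the 840 UMIs of Spp1, and in D5 B 1 held 378 of 674, so that levels of Spp1, Clu and keratins in these libraries are those of 1 or 2 cells. Dendritic cell markers were high in D5 B, where the cDC2 list summed to 2513 CPM with Ccl17 at 1269.6 CPM and Cd209a in 7 of 10 monocytes. D0 A stood at 784 CPM of that list, and the other libraries with at least 9 monocytes between 37.9 and 300.1 CPM. D5 B also had the least Lyz2, and 191 of all 261 monocytes were free of Cd209a, Zbtb46 and Clec10a. In D5 B only 3 of 10 were, and 7 of 10 gave at least 1% of their UMIs to MHC class II genes. The study describes dendritic cell precursors that express Ly6c2 from D5 onwards. The name monocyte is thus uncertain for the cells of D5 B, and whether they are dendritic cells was not tested. They met the rule and are kept below as an onset library, also in the fits at 10 monocytes. Doublets were not called, and the share of barcodes that hold 2 cells was not tested.

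Monocytes near the limits of the rule were counted. Of the 261 monocytes, 168 had 0 and 93 had 1 UMI of C1q, and 75 cells that met the rest of the rule held 2 to 4 UMIs and 145 held at least 5. Ly6c2 stood at 2 UMIs in 65 monocytes and at 3 or more in 196, while 157 cells just outside held 1 UMI. For Lyz2, 8 monocytes held 10 to 14 UMIs and 14 cells just outside held 5 to 9. Ccr2 stood at 1 UMI in 21 monocytes, and 45 cells just outside had 0. The C1q limit and the Ly6c2 limit thus cut through a continuous range. The median monocyte held 4 UMIs of Ly6c2, 117 of Lyz2 and 7 of Ccr2. Over the 10 libraries with at least 9 monocytes, Ly6c2 ranged from 538 CPM in STOP to 1770.5 CPM in D25 B, Lyz2 from 6057 CPM in D5 B to 24658 CPM in D25 B and Ccr2 from 651 CPM in D3 A to 1095 CPM in STOP.

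The share of monocytes among cells did not move with the diet beyond the spread of libraries. In steady state, monocytes made up 0.291% of cells in D0 A and 0.257% in D0 B. At onset they made up 0.226% in D3 A, 0.195% in D3 B, 0.354% in D5 A and 0.133% in D5 B. At progression they made up 0.488% in D9 A, 0.0459% in D9 B, 0.114% in D19 A, 0.0426% in D19 B, 0.404% in D25 A and 0.234% in D25 B. The highest and the lowest shares both lay at progression. The 10 DDC libraries averaged 0.224% ± 0.151 (SD) and the 2 of steady state 0.274% ± 0.0240 (SD), a difference of -0.0505 percentage points (p = 0.611 in a two-sided exact permutation test of library labels within protocol, where 36 arrangements allow 0.0278 at the smallest). Progression differed from onset by -0.00568 percentage points (p = 0.94 in the same exact permutation test, 100 arrangements). Within protocol A the differences were 0.0260 and 0.0450 percentage points, with the opposite sign. C1q, which the rule limits, was found in T cells as well, where 60.9% of 23 T cells in D9 A, 73.9% of 23 in D19 A and 63.2% of 38 in D25 A held a C1q UMI, against 10.3% of 39 in D5 A. Cells that met the rest of the rule with 2 to 4 C1q UMIs numbered 31 in D9 A, 16 in D19 A and 20 in D25 A, beside 72, 9 and 43 monocytes, and 1 in D5 A beside 24. With them the share was 0.698% in D9 A, 0.317% in D19 A and 0.591% in D25 A, progression differed from onset by 0.0897 percentage points (p = 0.4 in the same exact permutation test), and DDC from steady state by 0.0170 (p = 0.889). The shares depend on the sorts, which mixed populations at equal ratios, and on depth, as the rule applied after thinning every cell to 1500 UMIs found between 0% and 0.178% of cells.

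**Figure D1:**
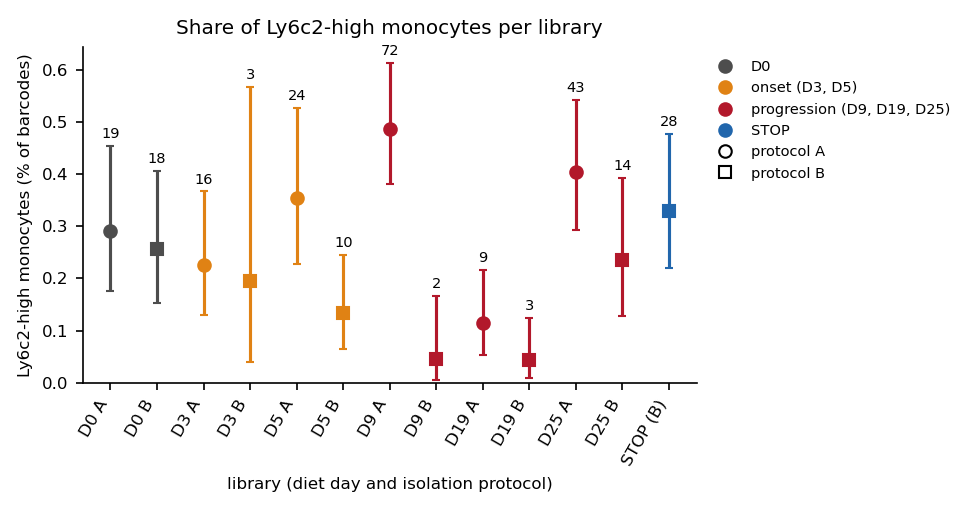
Share of Ly6c2-high monocytes in percent of cells for each of the 13 libraries, with exact binomial (Clopper-Pearson) 95% intervals that cover counting error only, and the number of monocytes above each point. Shares lie between 0.0426% in D19 B and 0.488% in D9 A, with onset between the extremes of progression.

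The monocytes varied among themselves in MHC class II transcripts. Of all 261 monocytes, 61 gave at least 1% of their UMIs to the 12 genes of MHC class II presentation and 10 gave less than 0.1%. In D9 A the share ran over the 72 monocytes with a median of 0.335%, and in STOP the median was 0.795%. Each of the 4 libraries with at least 20 monocytes was split at its own median share, into a low and a high group of like depth. The groups are set by a median and do not define types. Within 20% of the dividing value lay 19 monocytes of D9 A and 18 of D25 A, but 5 of D5 A and 2 of STOP. Whether the monocytes form a single range or separate groups was not tested. The comparison is a description with no test, as the cells of a library are not replicates.

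Part of the classical monocyte markers, Chil3 and Hp among them, were higher in the group with less MHC class II in all 4 libraries. Chil3 stood at 3553 CPM in the low and 1855 CPM in the high group of D5 A, at 3845 and 2525 CPM in D9 A, at 3436 and 2935 CPM in D25 A and at 495 and 124 CPM in STOP. Hp stood at 1157 and 221 CPM in D5 A, 881 and 492 CPM in D9 A, 1120.3 and 955 CPM in D25 A, and 997 and 723 CPM in STOP. Chil3 differed most in STOP, Hp most in D5 A, and both least in D25 A. Of the 25 classical monocyte genes, 9 were higher in the low group in all 4 libraries, among them Chil3, Hp, Vcan, F13a1, Fn1, Mgst1, Ifitm6 and Sirpb1c. The share of all genes that were higher in the low group in all 4 was not counted, so that no background stands beside this number. Plac8, Ifitm3 and Ms4a4c were higher in the high group in all 4, and the other 13, with Ly6c1 at 0 among them, were neither. Ccr2, which the rule used, was higher in the high group in all 4 as well. Il1b, which encodes the inflammatory cytokine interleukin-1 beta, was higher in the high group in all 4, at 691 and 3580.4 CPM in the low and high group of D5 A, 1427 and 1907 CPM in D9 A, 444 and 1009 CPM in D25 A, and 611 and 1605 CPM in STOP. Transcripts of sinusoidal endothelium moved with the split as well, with a summed level of 4535 CPM in the low and 1554 CPM in the high group of D5 A and higher in the low group in the other 3 libraries. The summed cDC2 list was higher in the high group in all 4, at 166 and 461 CPM in the low and high group of D5 A, 105 and 211 CPM in D9 A, 30.1 and 45.9 CPM in D25 A, and 110.1 and 324 CPM in STOP, and so was the cDC1 list. By gene the cDC2 list was evenly split in D25 A, with 2 genes higher in each group, and in STOP, with 4 in each. Other dendritic cell lists went the other way. The list of mature dendritic cells was higher in the low group of D5 A (191 against 120 CPM), D9 A (182 against 82.0 CPM) and STOP (245 against 124 CPM). In D25 A it was about equal (90.2 and 91.7 CPM). The list of plasmacytoid dendritic cells was also higher in the low group of D5 A, D9 A and STOP. Zbtb46 was higher in the low group in all 4, at 74.9 CPM or less. The summed macrophage list was higher in the high group of D5 A (11582 and 12265 CPM), D9 A (12181 and 23541 CPM) and D25 A (13887 and 20032 CPM) and lower in that of STOP (23778 and 22462 CPM). In D5 A 16 of its 30 genes were nevertheless higher in the low group, against 7 in D9 A and 4 in D25 A. In D25 A the low group held more cholangiocyte transcripts (429 against 99.4 CPM) and the high group more erythroid transcripts (1047 against 120.3 CPM). In STOP the low group held more neutrophil (8083 against 2522 CPM) and cholangiocyte transcripts (2672 against 27.6 CPM). Their part in the differences was not tested.

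**Figure D2:**
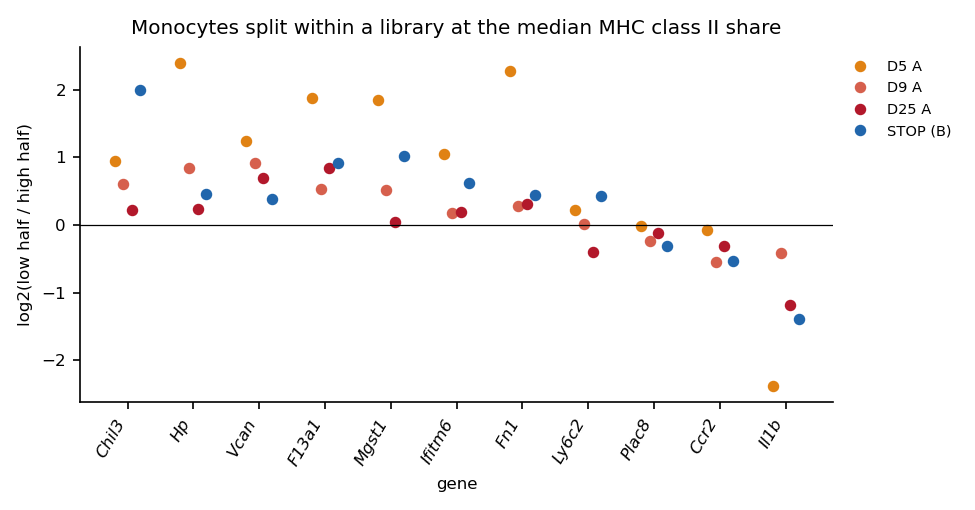
Log2 ratio of the level in monocytes at or below the median MHC class II share of their library to that in monocytes above it, for 11 genes (x axis) and the 4 libraries with at least 20 monocytes (colours). Points above 0, as all 4 of Chil3, Hp and Vcan, are higher in the low group, and Il1b lies below 0 in all 4.

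The change from onset to progression was tested on counts summed over the monocytes of a library. With at least 20 monocytes in a library, this set D9 A and D25 A against D5 A alone, in 1 protocol and with 1 residual degree of freedom, so that it compares progression with that 1 library. MHC class II genes and the interferon-induced Ifi27l2a were lower in D9 A and D25 A than in D5 A, and Thbs1 was higher. The SEs and p-values of this fit hold no spread between onset libraries, and a gene said to have risen or fallen was called against D5 A in it. edgeR's quasi-likelihood test called 55 of 4611 genes at an adjusted p under 0.05 (1.19%), 30 higher (0.651%) and 25 lower (0.542%), and DESeq2 called 3. With the rule raised to 4 Ly6c2 UMIs, 0 genes were called. In the 8 atlas libraries with at least 10 monocytes, 0 of 3990 genes were called (0%), with 291 at an unadjusted p under 0.05 and 12 by DESeq2. For H2-Ab1, Ifi27l2a, Thbs1 and Fn1, levels are therefore given below in every onset and progression library with at least 9 monocytes. Their direction at onset and progression is read over all of these. Other genes are given in fewer libraries or by fold change alone. Where D5 A is the only onset library given, their direction rests on it. Without the monocyte that held most of its UMIs in each library, 53 of the 55 genes kept D9 A and D25 A on the same side of D5 A, and Rsad2 and Retnlg did not.

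MHC class II genes were lower together. Of 8 tested genes of the list, 5 fell, 0 rose, and 7 of 8 had a negative fold change, with a median log2 fold change of -1.74, beside 0.01 over all genes tested. In the fit of 8 libraries the median was -1.69, with 7 of 8 negative and none called. H2-Ab1, which encodes the beta chain of the classical molecule I-A, stood at 2492 CPM in D5 A, 1056 CPM in D9 A and 189.5 CPM in D25 A (log2 fold change -1.83 ± 0.41 (SE), adjusted p = 0.00922 in edgeR's quasi-likelihood test). In the other libraries H2-Ab1 stood at 2959 CPM in D0 A, 2073 CPM in D0 B, 568 CPM in D3 A, 6198 CPM in D5 B, 19.2 CPM in D19 A, 301 CPM in D25 B and 2303 CPM in STOP. The D3 A library, although of onset, thus lay within the range of progression, while the 4 progression libraries lay below both D0 libraries and both D5 libraries. CT010467.1 rose in the same comparison (log2 fold change 1.87), as did mt-Rnr2 (0.98) and mt-Nd3 (2.03). CT010467.1 took 3.65% of monocyte UMIs in D5 A, 11.9% in D9 A, 12.3% in D25 A and 21.4% in D3 A. In D19 A and D25 B, where H2-Ab1 was low as well, it took 4.34% and 0.331%. Its part in the levels of H2-Ab1 was not tested. Without monocytes that hold Cd209a, Zbtb46 or Clec10a, H2-Ab1 stood at 3301 CPM in D5 A, 821 CPM in D9 A and 208 CPM in D25 A, and in D5 B, where 3 of 10 monocytes remained, at 3591 CPM. H2-Aa, which encodes the alpha chain of I-A, fell from 2710.4 CPM in D5 A to 1138 CPM in D9 A and 189.5 CPM in D25 A (log2 fold change -1.86 ± 0.41 (SE), adjusted p = 0.00922 in edgeR). H2-Eb1 (-1.88), H2-DMb1 (-1.76) and Cd74 (-1.73), which encode the I-E beta chain, a chain of the peptide-loading molecule and the invariant chain, fell by the same test, with adjusted p of 0.0118, 0.00458 and 0.0113 in edgeR. H2-DMa, the partner of H2-DMb1, did not pass, at 332 CPM in D5 A, 265 CPM in D9 A and 155 CPM in D25 A. Ciita, the transactivator of this gene group, was near 0, with UMIs in 1 monocyte of D0 A, 2 of D5 A and 1 of STOP.

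Monocytes rich in MHC class II were counted in each library, without a test. At least 1% of UMIs went to these genes in 9 of 19 monocytes of D0 A, 7 of 18 of D0 B, 3 of 16 of D3 A, 6 of 24 of D5 A and 7 of 10 of D5 B. At progression this held for 10 of 72 monocytes in D9 A, 0 of 9 in D19 A, 1 of 43 in D25 A and 2 of 14 in D25 B, and in STOP for 12 of 28. D3 A lay near D9 A and D25 B in this, and 2 of 3 monocytes of D3 B, 0 of 2 of D9 B and 2 of 3 of D19 B were rich in it. The share of monocytes with an H2-Ab1 UMI after thinning to 1500 UMIs was 25.0% in D5 A, 25.0% in D9 A and 11.6% in D25 A, beside 12.8%, 8.70% and 2.63% of T cells, which should lack it. Its difference between progression and onset was -6.69 percentage points (p = 1 in a two-sided exact permutation test with 3 arrangements, which cannot go below 0.333), and no gene of the 12 tested in this way can pass at this size.

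In protocol A, MHC class II was lower at progression than in D5 A in free RNA and in C1q-positive cells as well. MHC class II took 1.68% of monocyte UMIs in D5 A, 0.877% in D9 A and 0.359% in D25 A, and 2.67%, 0.722% and 0.392% of free RNA in the same libraries. Counterparts, defined by the same rule with at least 5 C1q UMIs and no demand on Ly6c2, gave 3.63%, 2.42% and 1.47% of UMIs to these genes. In protocol B the counterparts stood at 2.56% in D3 B, 3.82% in D5 B, 2.63% in D9 B, 3.69% in D19 B and 3.92% in D25 B. The monocytes of these libraries stood at 2.77%, 3.36%, 0.350%, 2.45% and 0.733%, those of D3 B, D9 B and D19 B as 2 or 3 cells, and free RNA at 3.51%, 3.07%, 2.37%, 1.98% and 1.79%. Counterparts of D9 B thus lay below those of D5 B, as the monocytes did, and those of D25 B did not. Counterparts lay above the monocytes in 12 of 13 libraries, the exception being D3 B with 3 monocytes. In D0 A the monocytes lay at 1.83% against 0.291% of free RNA, so that free RNA there was below the cells, while in D0 B, D3 A, D5 A, D19 A, D25 A and D25 B it was above them. The part of free RNA in the monocyte levels was not tested.

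**Figure D3:**
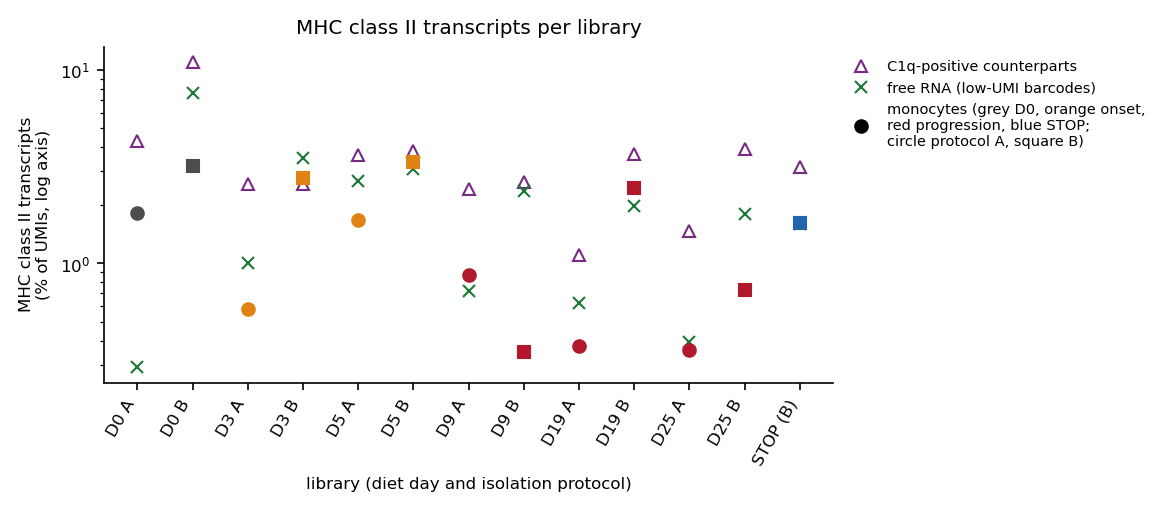
Percent of UMIs in the 12 MHC class II genes (log axis) in the monocytes, in C1q-positive counterparts and in free RNA of the 13 libraries; there are no error bars, as each point is 1 sum. The monocytes of D9 A, D19 A, D25 A and D25 B lie between 0.359% and 0.877%, below D0 and D5, and D3 A lies at 0.580%; the cross of free RNA in STOP (1.60%) is hidden by the square at 1.61%.

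The promoters of the genes that moved together were read, since MHC class II genes are known to share a regulatory module whose 3′ element is the Y box, an inverted CCAAT sequence bound by NF-Y. RefSeq promoter sequences (GRCm38.p6) were found for 9 of the 12 genes. The last 150 bases before the annotated start are printed for H2-Aa and H2-Eb1, the called genes that held the extended form CTGATTGG, which stands in capitals. Both genes lie in the MHC on chromosome 17, H2-Aa on the minus strand (chr17:34287824-34287973) and H2-Eb1 on the plus strand (chr17:34305717-34305866).
H2-Aa: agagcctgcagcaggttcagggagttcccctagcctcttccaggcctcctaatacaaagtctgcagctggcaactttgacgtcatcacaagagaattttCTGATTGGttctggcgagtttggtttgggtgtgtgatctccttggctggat
H2-Eb1: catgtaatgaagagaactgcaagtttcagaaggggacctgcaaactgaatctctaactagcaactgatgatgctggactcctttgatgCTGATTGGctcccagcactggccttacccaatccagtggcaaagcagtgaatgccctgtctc
The capitals begin 51 bases before the start of H2-Aa and 62 bases before that of H2-Eb1. H2-Oa held it as well, 46 bases before its start, so that 3 of 9 genes did within 250 bases on either strand. Of all 32851 promoters of that length, 3.83% held CTGATTGG or its reverse complement CCAATCAG, and 33.8% held the shorter core ATTGG or CCAAT, which lies within the longer form. These matches are letters in a window and say nothing of binding in the monocytes.

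Ifi27l2a and Rsad2 of the type I interferon list and Iigp1 of the interferon gamma list fell in the same comparison. Of 20 tested genes of the type I interferon list, 2 fell and 0 rose, 18 were negative, and the median log2 fold change was -0.95, with -0.49, again 18 negative and none called in the fit of 8 libraries. Ifi27l2a, an interferon-induced mitochondrial protein gene, stood at 2091 CPM in D3 A and 2251 CPM in D5 A, but 758 CPM in D5 B. At progression it stood at 783 CPM in D9 A, 528 CPM in D19 A, 508 CPM in D25 A and 1315 CPM in D25 B (log2 fold change -1.65 ± 0.30 (SE), adjusted p = 0.000958 in edgeR for D9 A and D25 A against D5 A). Within protocol A the onset libraries thus lay above those of progression, and within protocol B, with 1 library on each side, the order was the opposite. Rsad2, which encodes the antiviral enzyme viperin, stood at 197 CPM in D3 A and 155 CPM in D5 A against 50.1 CPM in D9 A and 15.2 CPM in D25 A (log2 fold change -1.95 ± 0.47 (SE), adjusted p = 0.0203 in edgeR). One monocyte of D3 A held 35 of 50 UMIs of Rsad2 and 1 of D5 A held 26 of 34, whereas the 24 UMIs of D9 A lay in 13 monocytes. Without its highest monocyte in each library, Rsad2 stood at 39.7 CPM in D5 A and 40.0 CPM in D9 A, so that its lower level in D9 A rested on 1 monocyte of D5 A. Of 15 genes of the interferon gamma list, 1 fell, Iigp1 (-1.77, adjusted p = 0.0142 in edgeR), a GTPase of cell-autonomous defence, with 28 of its 43 UMIs in D5 A in 1 monocyte, without which it stood at 74.4 CPM against 49.7 CPM in D9 A.

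Thbs1, which encodes the matrix protein thrombospondin-1, an activator of latent TGF-beta, rose and was carried by many cells. It stood at 550 CPM in D5 A, 2041 CPM in D9 A and 2202 CPM in D25 A (log2 fold change 2.09 ± 0.33 (SE), adjusted p = 8.02e-05 in edgeR and 0.0125 in DESeq2), with UMIs in 14 of 24, 53 of 72 and 37 of 43 monocytes. D3 A stood at 840 CPM, D5 B at 256 CPM and D25 B at 1358 CPM, D19 A at 921 CPM, and D0 at 1075 CPM (A) and 96.4 CPM (B). All 4 progression libraries lay above all 3 onset libraries, and D0 A lay among them. In free RNA Thbs1 stood at 15.6 CPM in D5 A, 343 CPM in D9 A and 282 CPM in D25 A, and in counterparts at 139, 778 and 825 CPM. Fn1 did not pass the test, at 844 CPM in D3 A, 1060 CPM in D5 A and 564 CPM in D5 B against 1614 CPM in D9 A, 2178 CPM in D19 A, 2570 CPM in D25 A and 1564 CPM in D25 B (log2 fold change 1.12 ± 0.32 (SE), adjusted p = 0.0737 in edgeR). Its onset and progression libraries did not overlap. How many of all genes tested are separated in this way, as Thbs1 and Fn1 were, was not counted. Vcan (1.01 ± 0.39 (SE), adjusted p = 0.329 in edgeR) did not pass either. Of 22 genes of the list of matrix, growth factors and coagulation, 1 rose and 0 fell, with a median of 0.57.

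**Figure D4:**
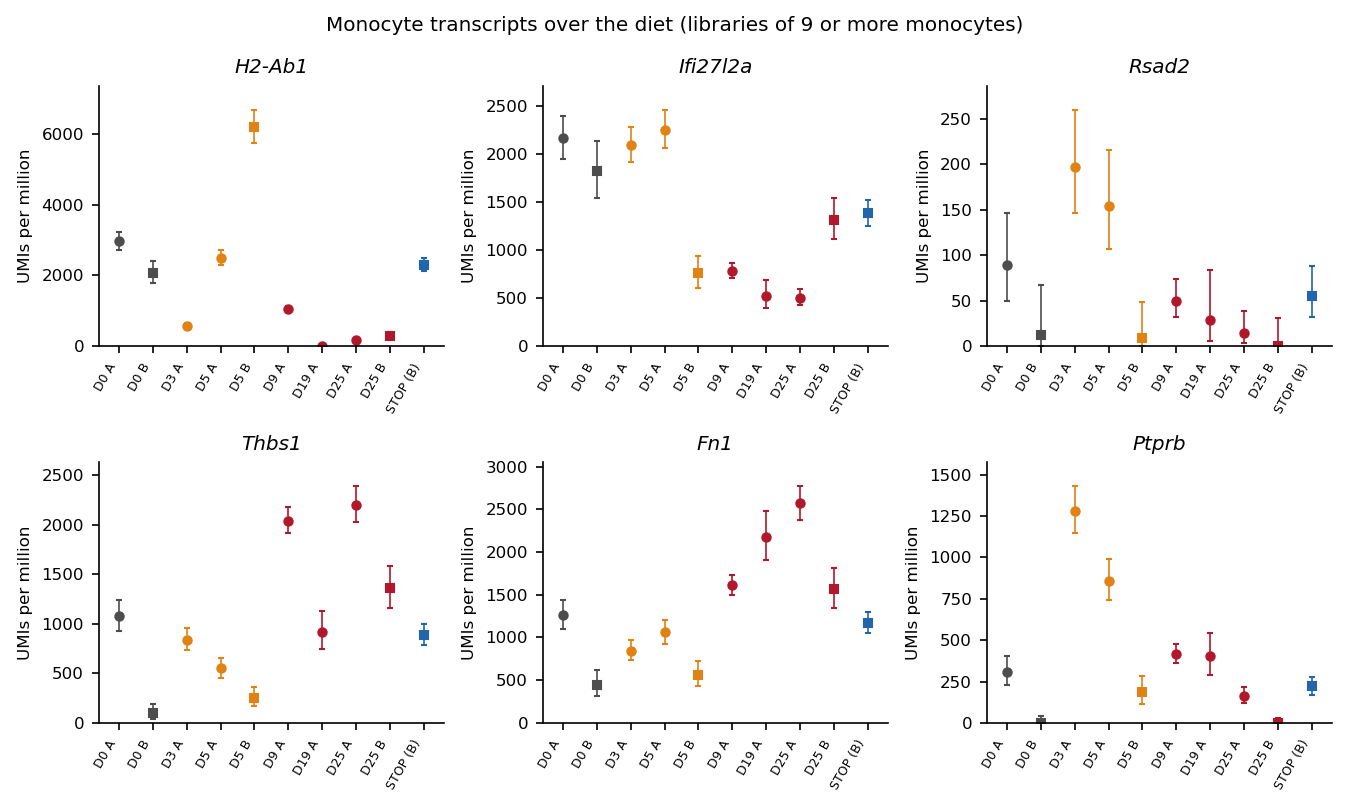
Levels (CPM) of 6 genes in the monocytes of the 10 libraries with at least 9 monocytes, with exact Poisson 95% intervals that cover counting error only; grey is D0, orange onset, red progression and blue STOP, circles are protocol A and squares protocol B. H2-Ab1 is at 1056 or lower in the 4 red libraries, and Thbs1 and Fn1 are higher in every red than in every orange library. The share of all genes with such an order was not counted.

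Among other genes called higher, several were carried by few cells or had no UMI in D5 A. S100a8 stood at 18.2 CPM in D5 A with 4 UMIs, 862 CPM in D9 A and 421 CPM in D25 A (log2 fold change 5.26 ± 0.58 (SE), adjusted p = 3.91e-08 in edgeR). In D9 A 1 of 72 monocytes held 279 of its 413 UMIs, whereas in D25 A 26 of 43 monocytes held S100a8 and the highest held 32 of 111. In free RNA S100a8 stood at 910 CPM in D5 A, 1677 CPM in D9 A and 1310 CPM in D25 A, above the monocytes in all 3. S100a9, Retnlg and Lcn2, further granulocyte genes, were called higher as well, so that 4 of 9 tested neutrophil genes rose, and of the granule list 4 of 11 rose with a median of 1.53. S100a8, S100a9 and Lcn2 are on both lists, and the fourth of the granule list was Lyz1. Clu, Gdf15, Tmem132a, Retnlg and Hbb-bs had no UMI in D5 A, and 1 monocyte of D25 A held 207 of 245 UMIs of Clu and 95 of 110 of Hbb-bs, so that no fold is given for them. Spp1 was at 4.55 CPM in D5 A with 1 UMI but at 1120.5 CPM in D3 A, where 1 monocyte held 232 of 284 UMIs, and its direction turned in the fit of 8 libraries.

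Of 27 macrophage genes, 4 rose and 0 fell, with a median of 0.69 that was -0.06 in the fit of 8 libraries. Fabp5, a fatty acid carrier, stood at 45.5 CPM in D5 A, 259 CPM in D9 A and 284 CPM in D25 A (log2 fold change 2.71 ± 0.47 (SE), adjusted p = 0.000435 in edgeR), and at 114 CPM in D3 A, 123 CPM in D5 B and 43.0 CPM in D25 B. Lpl, lipoprotein lipase, rose by 2.18 ± 0.44 (SE) on the log2 scale (adjusted p = 0.00304 in edgeR) and stood at 276 CPM in D3 A, where 1 monocyte held 59 of its 70 UMIs. C5ar1, the receptor of the complement fragment C5a, rose from 68.2 CPM in D5 A to 198 CPM in D9 A and 186 CPM in D25 A (log2 fold change 1.64 ± 0.44 (SE), adjusted p = 0.0458 in edgeR). The fourth was Spp1. Outside that list, C3, the central complement protein, rose from 123 CPM in D5 A to 313 CPM in D9 A and 368 CPM in D25 A, with UMIs in 13 of 24, 56 of 72 and 34 of 43 monocytes (log2 fold change 1.61 ± 0.40 (SE), adjusted p = 0.0282 in edgeR).

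Endothelial transcripts were among the genes called lower. Lyve1, a hyaluronan receptor of sinusoidal endothelium, stood at 509 CPM in D3 A, 391 CPM in D5 A, 79.3 CPM in D9 A and 22.7 CPM in D25 A, and at 0 in 4 other libraries. In free RNA Lyve1 stood at 461 CPM in D5 A, 316 CPM in D9 A and 164 CPM in D25 A. Of 7 tested sinusoidal genes, 1 fell (Ptprb, a phosphatase of endothelial cells, at -1.39), all 7 were negative, and their median was -0.70 here and -1.94 in the fit of 8 libraries. F2r, F8, Bmp2, Pcdh17, Adgrl4, Gja1 and Itga1, which endothelial cells express, fell too. In D5 A 1 monocyte held 36 of 55 UMIs of F2r, 22 of 33 of Pcdh17, 24 of 44 of Gja1 and 54 of 105 of Bmp2. For F8, Adgrl4 and Itga1 the highest monocyte held a smaller part. Without its highest monocyte in each library, each of these genes still stood lower in D9 A and D25 A than in D5 A. The summed sinusoidal list stood at 5117 CPM in D3 A, 3183 CPM in D5 A, 2131 CPM in D9 A and 1016 CPM in D25 A. How much of these transcripts came from the monocytes themselves was not tested. Of the classical monocyte list, 0 of 23 tested genes were called, with 13 positive, 10 negative and a median of 0.02.

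Steady state could be compared only in libraries with at least 10 monocytes, as neither D0 library held 20. Onset against steady state called 0 of 3990 genes (0%), with 265 at an unadjusted p under 0.05 and 7 called by DESeq2. Progression against steady state called 0 of 3990 (0%), with 239 at an unadjusted p under 0.05 and 7 called by DESeq2. On simulated data for these sizes, the same fit recovered 44% and 55.5% of genes changed by a log2 change of 2. Within protocol A alone, 47 and 35 genes were called, where steady state is the D0 A library with its few cells rich in S100a8. None of the genes that follow passed edgeR's test over both protocols.

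Vcan stood at 53.5 CPM in D0 A and 12.1 CPM in D0 B, and at 309 CPM in D9 A, 531 CPM in D25 A and 232 CPM in D25 B (log2 fold change 3.35 ± 0.62 (SE), adjusted p = 0.319 in edgeR, 0.00439 in DESeq2). D3 A and D5 A lay near D25 B, at 241 and 227 CPM, and D5 B at 26.4 CPM lay within D0. Chil3 stood at 582 CPM in D0 A and 868 CPM in D0 B, and at 2691 CPM in D3 A, 2783 CPM in D5 A, 3206 CPM in D9 A, 4826 CPM in D19 A and 3187 CPM in D25 A. D25 B (1513 CPM) lay above D0 as well and D5 B (520.2 CPM) below it. Ccl5, a chemokine of T cells and of monocyte-derived cells, stood at 113 CPM in D0 A and 337 CPM in D0 B against 8.35 CPM in D9 A, 0 in D25 A and 51.6 CPM in D25 B (log2 fold change -3.50 ± 0.75 (SE), adjusted p = 0.432 in edgeR, 0.00439 in DESeq2). Onset spanned both, at 55.2 CPM in D3 A, 13.6 CPM in D5 A and 432 CPM in D5 B. Trem2, a lipid receptor of macrophages in injured tissue, stood at 35.6 and 48.2 CPM in D0 and between 77.3 and 189 CPM in the 6 DDC libraries of the fit (2.09 ± 0.58 (SE), adjusted p = 0.69 in edgeR for progression).

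Granulocyte genes had the smallest p at onset. S100a8 stood at 12738 CPM in D0 A and 1085 CPM in D0 B against 367, 18.2 and 35.3 CPM in D3 A, D5 A and D5 B (log2 fold change -5.50 ± 0.93 (SE), adjusted p = 0.100 in edgeR). Mmp9, a gelatinase of neutrophil granules, stood at 309 and 60.3 CPM in D0 and at 0 in the 3 onset libraries. In D0 A 3 monocytes held at least 5 UMIs of S100a9, and in D0 B 1 did. Without monocytes that hold neutrophil transcripts, S100a8 turned to 2.58 on the log2 scale for progression against steady state. Of 7 sinusoidal genes all were higher at onset than at D0, with a median of 2.10 and none called. Of 20 type I interferon genes, all were lower at progression than at D0, with a median of -1.25 and none called.

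Whether the change from onset to progression differed between the monocytes and the C1q-positive counterparts of the same libraries was tested as an interaction. The counterparts numbered 4466 in all and 179, 1172 and 766 in D5 A, D9 A and D25 A. The fit at 20 monocytes used only D5 A, D9 A and D25 A, with D5 A alone for onset. Its SEs and p-values hold no spread between onset libraries. The test called 33 of 10529 genes (0.313%), 13 with a log2 change that was higher in the monocytes (0.123%) and 20 with one that was lower (0.19%), and DESeq2 called 2. In the 6 DDC libraries with at least 10 monocytes it called 44 of 9826 (0.448%), 2 higher (0.0204%) and 42 lower (0.427%), and DESeq2 called 16. The 42 include Krt18, Krt19, Epcam, Sox9 and Tspan8 of bile duct cells, and 2 of the 10 monocytes of D5 B held keratin and Spp1 UMIs at high levels. Without D5 B, 25 genes were called, 21 of them lower. In fits of each class alone, Krt18, Epcam and Sox9 changed by 3.97, 3.36 and 3.03 in the counterparts on the log2 scale. In the monocytes they changed by -1.18, -2.20 and -1.52, with SEs of 1.80, 1.81 and 1.87. The source of these transcripts in the counterparts was not tested.

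In D9 A and D25 A against D5 A alone, Chil3 and Plac8 had a lower log2 change in the monocytes than in the counterparts. Chil3 stood at 2783, 3206 and 3187 CPM in the monocytes of D5 A, D9 A and D25 A and at 28.9, 116 and 213 CPM in their counterparts (interaction -2.24 ± 0.27 (SE) on the log2 scale, adjusted p = 4.21e-13 in edgeR). Plac8 stood at 2556, 1614 and 1592 CPM in the monocytes and at 91.4, 123 and 195 CPM in the counterparts (interaction -1.42 ± 0.26 (SE), adjusted p = 5.59e-05 in edgeR). Hp and Mgst1 were called as well, so that 4 of 23 genes of the list had a lower log2 change in the monocytes and 0 a higher one. In the 6 libraries 0 of 23 were called, and Plac8 turned to 0.21. Free RNA of Chil3 rose from 37.5 CPM in D5 A to 90.8 CPM in D9 A and 84.5 CPM in D25 A, and its part in the level of the counterparts was not tested.

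Of 12 MHC class II genes, 4 had a lower log2 change in the monocytes, against the single onset library D5 A, and 4 of the 12 were positive. H2-Ab1 stood at 2492, 1056 and 189.5 CPM in the monocytes of D5 A, D9 A and D25 A and at 5441, 3628 and 1786 CPM in the counterparts (interaction -1.25 ± 0.24 (SE), adjusted p = 0.000119 in edgeR). H2-Aa, H2-Eb1 and Cd74 were called likewise, and in the 6 libraries 0 of 11 genes were. Of 26 inflammatory cytokines and chemokines, 3 were called lower (Il1b, Cxcl1, Cxcl2) and 1 higher (Ccl24), with 12 positive and 14 negative. Il1b stood at 2001, 1659 and 724 CPM in the monocytes and 1035, 1528 and 1103 CPM in the counterparts (interaction -1.17 ± 0.25 (SE), adjusted p = 0.0016 in edgeR, and 0.0726 in the 6 libraries). Hbegf, a growth factor of the EGF family, stood at 68.2, 29.2 and 18.95 CPM and at 69.1, 245 and 128 CPM (interaction -2.95 ± 0.57 (SE), adjusted p = 0.000136 in edgeR). Hbegf, Cxcl1, which encodes a neutrophil chemokine, and Rsad2 were also called in the 6 libraries, at -3.31, -4.27 and -2.38. In D5 A 1 monocyte held 19 of 24 UMIs of Cxcl1 and 26 of 34 of Rsad2, and in D9 A 1 held 46 of 53 of Ccl24. Of 30 genes of lipid handling, Fabp5, Lpl, Fabp4 and Lipa were called with a higher log2 change in the monocytes, while the list was split into 16 positive and 14 negative with a median of 0.04. In the 6 libraries 0 of 29 were called, and Fabp4 turned to -0.40. Lipa, the lysosomal acid lipase, stood at 109, 263 and 193 CPM in the monocytes and 589, 386 and 551.5 CPM in the counterparts (interaction 1.46 ± 0.36 (SE), adjusted p = 0.0201 in edgeR).

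Diet withdrawal was described without a test, as STOP is 1 library. Its monocytes carried more Arg1, Ftl1 and Ldha, and less Chil3, than those of the 8 atlas libraries with at least 10 monocytes. The protocol B library before withdrawal, D19 B, held 3 monocytes, and among genes with at least 200 CPM in either, 85 were higher and 127 lower in STOP with separate exact Poisson intervals, which describes 3 cells. STOP was therefore set beside those 8 libraries. The 601 genes compared were those of the 33 lists and those with the largest ratios to D19 B. Of these, 16 lay above all 8 with an interval apart from each of theirs, and 1 lay below. Among the 16, Atp6v0c and Cstb had been picked for their large ratio to D19 B, a choice that used their level in STOP. Of all 15368 genes with a UMI in these 9 libraries, 34 lay above (0.221%) and 1 below (0.00651%), and of the 1339 with at least 200 CPM in a library, 28 lay above (2.09%).

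Arg1, the arginase that marks alternatively activated macrophages, stood at 535 CPM (exact Poisson 95% interval 456 to 623) in STOP and between 0 and 26.5 CPM in the 8 libraries. Its UMIs lay in 10 of 28 monocytes of STOP and in 11 of 233 of the atlas. After thinning to 1500 UMIs, Arg1 was found in 14.3% of STOP monocytes, against 1.04% of T cells in that library, whose median depth was 3824 UMIs against 9763 of the monocytes. Hmox1, heme oxygenase, stood at 593 CPM (510.1 to 685) in STOP, with UMIs in 23 of 28 monocytes, 1 of which held 108 of 183, and between 24.1 and 275 CPM in the 8 libraries. Ftl1 and Fth1, the ferritin chains that store iron, stood at 10985 and 17169.7 CPM, against at most 6145 and 15665 CPM. D19 A, with 9 monocytes, stood at 9067 CPM of Ftl1 and 13452 CPM of Fth1, which is close to STOP. Arg1 without the monocyte that held most of it stood at 369 CPM, still above all 8 libraries, whereas Hmox1 without its highest monocyte stood at 250.1 CPM, within their range, and Fth1 at 14402 CPM as well. Without their highest monocyte, 8 of the 16 genes remained above all 8 libraries with an interval apart, namely Arg1, Ftl1, Ldha, Pgam1, Mif, Fabp5, Plin2 and Cstb. Cstb had been picked with its level in STOP known. Tpi1, C5ar1, Ier3, Atp6v0c and Ccl7 were then above all 8 in CPM alone, with intervals that met.

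Of 31 genes of glycolysis and hypoxia, 4 lay above all 8 libraries (Ldha, Mif, Pgam1 and Tpi1) and 0 below. Of the 601 genes 2.66% lay above, Atp6v0c and Cstb among them, and of all genes with at least 200 CPM in a library 2.09% did. Ldha, lactate dehydrogenase, stood at 888 CPM (786 to 999) with UMIs in 27 of 28 monocytes, against 213 to 352 CPM. Pgam1 and Tpi1, enzymes of glycolysis, stood at 492 and 353 CPM against at most 217 and 208 CPM. Fabp5 stood at 891 CPM against at most 284 CPM, with 100 of its 275 UMIs in 1 monocyte, and Plin2, which coats lipid droplets, at 891 CPM against at most 395 CPM in 23 of 28 monocytes. C5ar1 (311 CPM), Mif (476 CPM), Ier3 (995 CPM), Ccl7 (321 CPM), Cstb (1769 CPM) and Atp6v0c (1801 CPM) lay above all 8 as well, Ccl7 in 5 monocytes. Ly6d, a marker of other lineages, lay in 1 monocyte. Chil3 was the gene below all 8, at 321 CPM (261 to 390.5) against 520.2 to 3206 CPM.

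The Arg1-bearing monocytes of STOP are set beside the rest without a test. Gpnmb, a glycoprotein of lipid-laden macrophages, had UMIs in 7 of 10 monocytes with Arg1 and in 1 of 18 without. Hmox1 had 144 UMIs in the 10, of which 1 monocyte held 108, and 39 in the 18, and H2-Ab1 had 25 in the 10 and 686 in the 18. Chil3 was found in 8 of 10 and 7 of 18, and Ly6c2 had 51 and 115 UMIs. The median depth was 10465.5 UMIs with Arg1 and 9586 without. The counterparts of STOP stood at 269.5 CPM of Arg1 and 469 CPM of Hmox1, and free RNA at 112 and 74.2 CPM. Arg1 was above both also without its highest monocyte, and Hmox1 then lay below the counterparts.

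**Figure D5:**
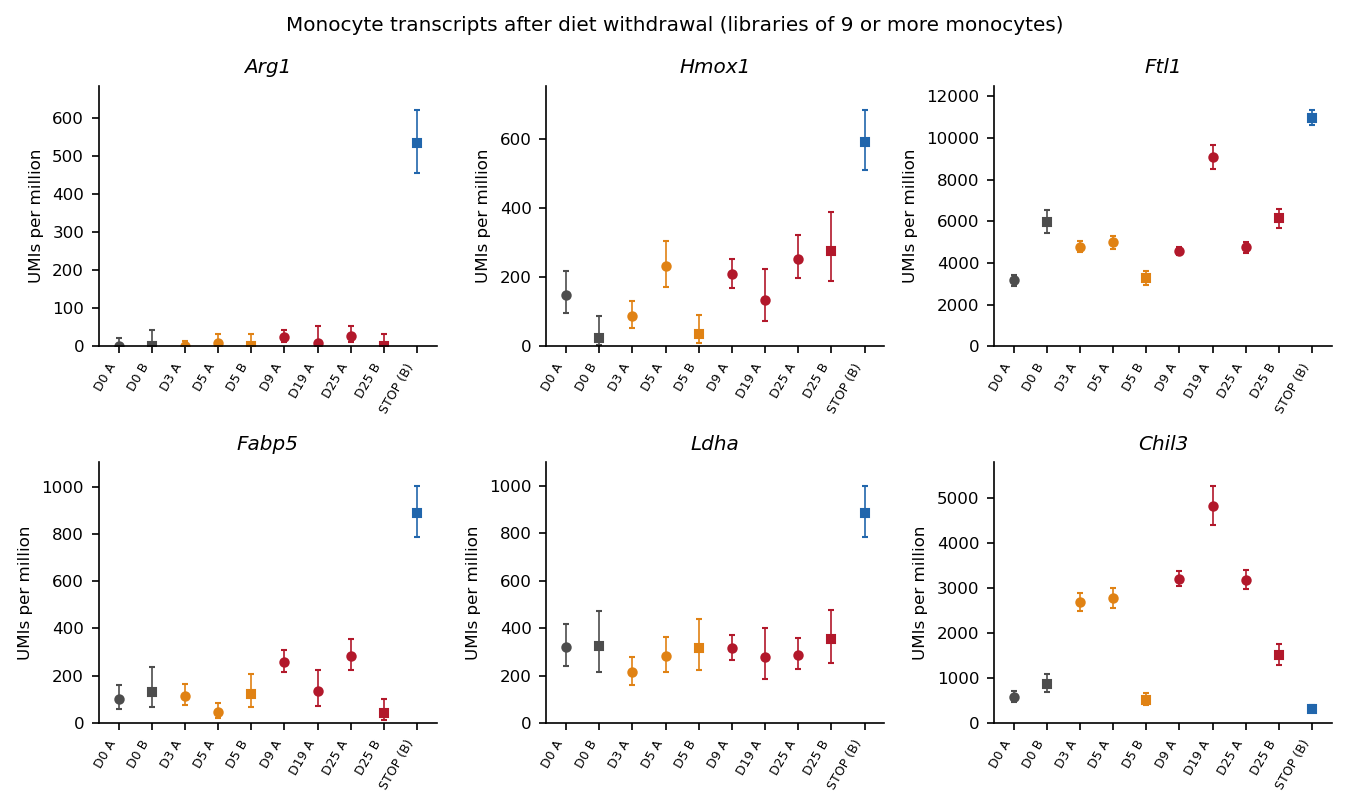
Levels (CPM) of 6 genes in the monocytes of the 10 libraries with at least 9 monocytes, with exact Poisson 95% intervals that cover counting error only; colours and shapes are as in the plot of 6 genes over the diet. STOP (blue) is at 535 for Arg1 and 593 for Hmox1, where 1 monocyte held 108 of 183 UMIs, above every other library, and at 321 for Chil3, below every other library.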

How the data were processed

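Single-cell RNA-seq libraries (10x 3′ v3.1) of mouse liver were used as deposited. For each barcode and gene symbol, the authors deposited UMI counts without normalisation, and the submitters' processing notes name kallisto and GRCm38, while the kallisto version and the annotation are not given in the sources used here. Reads were counted by the authors, so that near-identical genes could share them.

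Counts were summed over the monocytes of each library and tested in edgeR 4.0.16 (R 4.3.3, limma 3.58.1) by the quasi-likelihood test with TMM scaling, filterByExpr, a protocol term where both protocols entered, and Benjamini-Hochberg adjustment at 0.05. The difference from counterparts was an interaction in a fit with a term for each library. DESeq2 1.42.0 was an alternative. Intervals (95%) are exact and cover counting error only. Shares were tested by exact permutation in scipy 1.17.1 (Python 3.11.15, numpy 2.4.6, pandas 2.3.3). Fold changes come from the TMM-scaled fits and levels from CPM without TMM factors.

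A minimum of 20 monocytes per library was used, and of 10 where no D0 library reached 20, a limit added after monocytes had been counted. The members and the 33 gene lists were chosen with earlier results of these data known. Named genes were the rule genes, the classical monocyte list, the 12 genes of the share tests, the 10 largest changes in each direction among called genes whose mean log2 CPM reached 5, up to 5 genes of each list with the smallest p and, for recovery, the largest ratios. Predicted, mitochondrial, ribosomal and immunoglobulin genes were left out. Ciita, H2-DMa, Gpnmb and the genes compared between STOP and all atlas libraries were chosen after their values were seen, as were the limit of 4 C1q UMIs and the levels without the highest monocyte. Doublets were not called. Monocytes with at least 2 UMIs of other lineages were left out as an alternative, with Fcgr2b and Ighm not counted. The fits were checked on simulated counts, where 55% of 200 genes with a log2 change of 2 were recovered for progression against onset at 20 monocytes per library and 25% for the difference from counterparts. The result for 1 gene of the classical monocyte list is not reported here.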

Additional observations from a re-analysis of the deposited data

Results flagged for a closer look

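The change from onset to progression differed between the monocytes and the C1q-positive counterparts for 33 genes by the interaction test in edgeR (adjusted p under 0.05). Values below are differences of log2 fold changes, monocytes minus counterparts, from D9 A and D25 A against D5 A. Lower in the monocytes were Cxcl1 (-3.90), Creb5 (-3.35), Hbegf (-2.95), Slpi (-2.75), Chil3 (-2.24), Rsad2 (-1.78), Jdp2 (-1.63), Nlrp3 (-1.59), F2r (-1.56), Hp (-1.46), Cxcl2 (-1.44), Plac8 (-1.42), H2-Eb1 (-1.42), Cd74 (-1.31), Mgst1 (-1.29), H2-Ab1 (-1.25), H2-Aa (-1.24), Il1b (-1.17) and Ifi27l2a (-1.00), and Dmbt1, with 2 UMIs in D5 A and 1 in D25 A. Higher in the monocytes were S100a9 (5.99), Spp1 (5.05), S100a8 (4.45), Ccl24 (3.74), Hdc (3.32), Fabp5 (2.81), Lpl (2.30), Fabp4 (1.68), Lipa (1.46) and Pla2g7 (1.30). S100a9 and Spp1 had 1 UMI each in the monocytes of D5 A, and Ccl24 had 2. In D9 A 1 monocyte held 46 of 53 UMIs of Ccl24, and 1 held 260 of 411 of S100a9. Retnlg (12.02), Gdf15 (11.13) and Tmem132a (10.02) had no UMI in the monocytes of D5 A, so that their fitted values depend on the prior count and give no fold.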

How the results depend on the processing

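The count of genes that changed from onset to progression (55) fell to 3 in DESeq2, 23 with at least 3000 UMIs per cell, 0 with at least 4 Ly6c2 UMIs and 0 with at least 10 monocytes per library, and the cause was not tested. It was 71 without the filter on low counts, with 41 higher and 30 lower. With at least 10 monocytes per library the count (0) was 12 in DESeq2, 95 without the filter on low counts and 4 with at least 4 Ly6c2 UMIs. It was 29 without monocytes holding transcripts of other lineages, 3 without those holding dendritic cell transcripts, 2 within protocol A, and 0 to 1 with 1 library left out. This removal of other lineages did not count Fcgr2b and Ighm, was not planned and left 113 of 261 monocytes. For onset against steady state (0) the same settings gave 7, 95, 8, 38, 17 and 47, 13 came without monocytes holding neutrophil transcripts, and leaving out 1 library gave 0 to 9. For progression against steady state (0) they gave 7, 90, 3, 186, 39 and 35, then 21, and 0 to 11. The difference from counterparts (33) gave 2 in DESeq2, and with at least 10 monocytes (44) it gave 16 in DESeq2, 128 without the filter and 25 to 197 with 1 library left out. The share difference of DDC from steady state turned to 0.00570 points after thinning, 0.0260 within protocol A and 0.0170 with up to 4 C1q UMIs, was -0.171 with at least 3000 UMIs, -0.150 over barcodes with Ptprc and -0.127 within protocol B, and lay between -0.0799 and -0.0304 with 1 library left out. That of progression from onset turned to 0.0435 with at least 3000 UMIs, 0.0420 after thinning, 0.0450 within protocol A and 0.0897 with up to 4 C1q UMIs, was -0.0541 with at least 4 Ly6c2 UMIs, -0.0986 over barcodes with Ptprc and -0.0563 within protocol B, and lay between -0.0589 and 0.0367 with 1 library left out, positive without D9 B (0.0294), D19 A (0.0158), D19 B (0.0301) or D5 A (0.0367). Single genes that turned were Clu (-0.79) and Spp1 (-2.77) for progression against onset and S100a9 (-0.35), Spp1 (-3.11), Fabp4 (-0.40) and Plac8 (0.21) for the difference from counterparts, all with at least 10 monocytes, Wfdc21 at onset without D0 A (0.49, from -8.57 without D3 A), and S100a8 (2.58) for progression against steady state without monocytes holding neutrophil transcripts. Leaving out a library at 20 monocytes was not run, and the planned removal of other lineages left 36 monocytes and gave no value. No paired analysis was possible because, at 20 monocytes, the atlas libraries were all of protocol A and the replicate numbers, which stand for the protocols, pair no stages there. The difference from counterparts was fitted with a term for each library, which pairs both cell classes. The fits at 10 monocytes held the protocol as a term, and without it 0 genes were called in each of the 3 contrasts.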
